A study of Mus musculus with 4 samples.

Results

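The probe sets described here are those of an Affymetrix mouse expression array to which the platform annotation gives no gene symbol. Of 45101 probe sets on each array, 9160 had no symbol once the 64 control probe sets were left out. Of these, 2214 had a signal above the median of all values, log2 5.23, on at least 1 of the 4 arrays, and they are called the unnamed probe sets below. The other 6946, under that floor on every array, were not set against named probe sets. A probe set with no symbol is unnamed in the annotation used, which does not make it a probe set without a gene. The same annotation lists no probe set for 4639 of the 21896 protein-coding genes in the RefSeq gene table, so the unnamed group can hold well-known genes as well as transcripts that were never assigned.

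RNA came from ST2, a cell line of bone marrow stroma from BALB/c mice with fibroblast-like morphology. The culture medium was RPMI 1640, fetal bovine serum made up 10% of it, and the incubator air held 5% CO2. The control group was kept at 37 °C, and the other 3 groups received low-intensity pulsed ultrasound (LIPUS), weak sound pulses that are applied to healing bone in the clinic, at 25 mW per square cm for 20 min and were then returned to culture for 0.5, 1 or 3 h. Each group is 1 array of 1 culture of 1 cell line, so no value has a replicate, no test between groups was possible, and differences between cultures cannot be told apart from differences between treatments. The labels do not say when the control cells were harvested or whether they were handled alongside the treated ones.

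On this kind of array a probe set is a group of short oligonucleotides designed against one transcript sequence. The cDNA from which cRNA is made is primed from the poly-A tail, so signal comes mostly from the last stretch of a polyadenylated RNA. The array was designed from mRNA records and from clusters of expressed sequence tags, which are single-pass reads of cDNA clones. Many such clusters later proved to be introns of known genes, alternative ends of transcripts, long noncoding RNAs or stretches of genomic DNA, and a probe set on one of them reports RNA that an ordinary gene list does not show. The suffix of an identifier tells how unique its probes are: plain _at marks a set designed for a single transcript, _a_at one shared by transcripts of a gene, _s_at one shared by transcripts of several genes, and _x_at one with some probes that match other sequences. The files used here hold no probe sequences or positions, so each unnamed probe set is given by its identifier alone and no nucleotide sequence is printed.

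The 4 arrays had medians from 5.21 to 5.25 over all probe sets on the log2 scale. Stromal markers were as the label states: 12 of 13 with a probe set were above the floor on all 4 arrays, among them the collagen gene Col1a2 from 14.26 to 14.30. Of 8 haematopoietic markers 2 were above it, Csf1r from 6.25 to 6.33 and Cd3e from 6.06 to 6.28, and Ptprc, the general leukocyte marker, was under it on every array. Of 5 endothelial markers 1 was above it, Kdr from 5.51 to 5.83. Spread was gauged from genes with a pair of probe sets, as the SD of the disagreement within the pair scaled to a single probe set. Where both had a mean signal of at most 7.27, the 75th percentile of the unnamed probe sets, this SD was 0.143 at 0.5 h, 0.186 at 1 h and 0.163 at 3 h against the control, over 1267 genes. It covers spread within a pair of arrays only. Probe sets of 1 gene can report different RNAs, so it is not technical error alone.

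The unnamed probe sets were dim. On the control, 0.5 h, 1 h and 3 h arrays their median log2 signal was 5.86, 5.83, 5.97 and 5.92, against 7.71, 7.72, 7.75 and 7.69 for the 20748 probe sets with 1 symbol that passed the same floor. Of all probe sets without a symbol 24.2% passed it, against 59.4% of those with 1 symbol. By identifier, 86.2% of the unnamed probe sets were plain _at, 6.01% _a_at, 2.66% _s_at and 5.10% _x_at, and the shares among probe sets with 1 symbol were 71.5%, 15.2%, 6.75% and 6.49%. The plain _at sets were the dimmest, with a median signal of 5.76 over the 4 arrays, while the _s_at sets had a median of 9.12. A few unnamed probe sets lay near the top of the scale, and the 5 brightest had mean signals from 13.79 to 14.28. These 5 differed from the control by −0.09 to 0.22 at every LIPUS time.

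Passing the floor depended on the array. Of the unnamed probe sets, 1647 (74.4%) were above it on all 4 arrays, against 92.8% of those with 1 symbol. Among the 195 unnamed probe sets above it on 1 array alone, the array was the 1 h array for 83, the 3 h array for 52, the 0.5 h array for 31 and the control for 29. Probe sets with 1 symbol were spread evenly, with 129, 136, 121 and 133 in that order. Such probe sets had to be higher on the array that let them in, so the 1.5-fold counts at each LIPUS time and in the step from 0.5 h to 1 h are also given for those above the floor on all 4 arrays. The nearest probe sets on either side of the floor were 1442880_at, admitted with a highest value of 5.2277, and 1441136_at, left out with 5.2272.

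At 1 h after LIPUS, a small group of unnamed probe sets rose, most of them dim. Of 2107 with at least 1 of both arrays above the floor, 14 (0.664%) had at least 2-fold the control signal and 0 were at least 2-fold lower. Over all 23075 probe sets measured in this comparison, 0.212% were higher and 0.00433% lower. Among probe sets with 1 symbol, weighted so that their distribution of mean signal equalled that of the unnamed ones, 0.112% were at least 2-fold higher. At 1.5-fold, a log2 difference of 0.585, 86 unnamed probe sets (4.08%) were higher and 5 (0.237%) lower, while the shares at equal signal were 1.02% and 0.377% for 1 symbol and those over all probe sets were 1.31% and 0.438%. Restricted to probe sets above the floor on all 4 arrays, 61 of 1647 unnamed ones (3.70%) were at least 1.5-fold higher, against 0.955% at equal signal. Of the same 1647, 11 were past 2-fold, against 0.137% at equal signal. With the floor raised to the 75th percentile of all values, 0 were past 2-fold, and 4 of 497 (0.805%) were past 1.5-fold against 0.739% at equal signal. Only 1 of the 14 was still measured at that floor. Values under it were raised to it, so this 0 does not show that rises were absent among dimmer probe sets. Against the mean of the other 3 arrays in place of the control, 6 of 2094 were past 2-fold. At 1.5-fold 74 (3.53%) were past it with that reference, against 0.611% at equal signal. A sign of RNA or labelling quality moved on the same array: the signal of 5′ minus 3′ probe sets of 4 control transcripts changed from the control array by −0.16 for Gapdh, −0.13 for Actb, −0.30 for the transferrin receptor and −0.23 for pyruvate carboxylase on the log2 scale. The changes were −0.06, −0.03, −0.41 and −0.09 at 0.5 h and −0.16, −0.09, −0.14 and −0.22 at 3 h, and their part in the result was not tested.

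The median moved less than the upper side of the distribution. The median log2 difference at 1 h was 0.026 for the unnamed probe sets and −0.006 for those with 1 symbol at equal signal, a gap of 0.032, and the median over all probe sets measured was 0.022. Of the unnamed probe sets 1169 were above 0 and 927 below. The SD of their differences was 0.263 against 0.218 at equal signal, and the 5th and 95th percentiles were −0.31 and 0.55, so the spread was wider on the upper side. The gap turned to −0.018 with the floor at the 75th percentile.

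**Figure D1:**
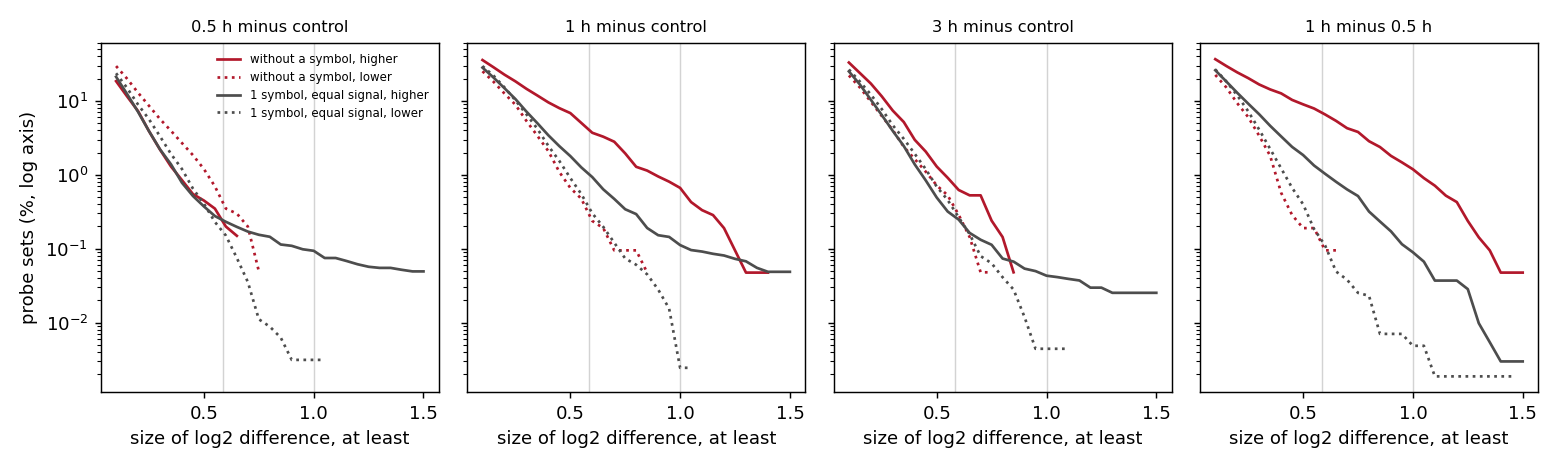
Percentage of probe sets (log axis) whose log2 difference is at least the size on the x axis, for unnamed probe sets (red) and for probe sets with 1 symbol weighted to equal signal (grey), solid for higher and dotted for lower, with grey lines at 1.5-fold and 2-fold. At 1 h minus control the red solid line lies above the grey one, 4.08% against 1.02% at 1.5-fold, and the dotted lines lie close together.

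The 14 unnamed probe sets past 2-fold at 1 h were each highest on the 1 h array, which their choice nearly fixes, and differed in their values at 0.5 h and 3 h. 1440026_at had the largest difference: on the control, 0.5 h, 1 h and 3 h arrays, the order used for all series of 4 values below, its log2 signals were 5.57, 5.78, 6.98 and 6.29, and it rose 2.65-fold at 1 h. 1447453_x_at, the 1 probe set of the 14 with another suffix than plain _at, was at 5.24, 5.28, 6.52 and 5.76, a 2.43-fold rise. 1440954_at was at 5.40, 5.34, 6.63 and 6.21, a 2.34-fold rise. In all 3 the control and 0.5 h values lay together, the 1 h value stood above, and the 3 h value lay between.

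Others differed in how far they had come back by 3 h. 1456973_at was at 5.45, 5.44, 6.54 and 5.55, 0.10 above the control at 3 h after a 2.13-fold rise. 1445534_at was under the floor in the control and at 0.5 h, with 5.22 and 5.13, and then at 6.39 and 5.28. It was at least 2.25-fold higher at 1 h, and it was the 1 probe set of the 14 at least 2-fold below its 1 h value on each other array. 1456983_at, at 5.64, 5.46, 6.82 and 6.51, stayed higher, with log2 differences of 1.17 at 1 h and 0.87 at 3 h. These 3 have in common low values on both early arrays and differ in the last.

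Some had a different value at 0.5 h. 1443161_at was at 5.83, 5.36, 7.06 and 6.30, lower by 0.48 on the log2 scale before its 2.33-fold rise. 1457483_at was at 5.75, 6.41, 6.79 and 6.47, already 0.66 higher at 0.5 h. 1438783_at was the brightest of the 14, at 7.10, 7.49, 8.12 and 7.40. The remaining 5 were 1429900_at, 1446972_at and 1447408_at, with log2 differences at 1 h of 1.10, 1.03 and 1.00, and 1458648_at and 1456808_at, which were under the floor in the control and had lower bounds of 1.15 and 1.01. Over the 14, the control signal ran from 5.16 to 7.10 and the 1 h signal from 6.24 to 8.12, and the differences at 3 h ran from 0.05 to 0.87 with a median of 0.50. After quantile normalization of the arrays 11 of the 14 were past 2-fold.

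**Figure D2:**
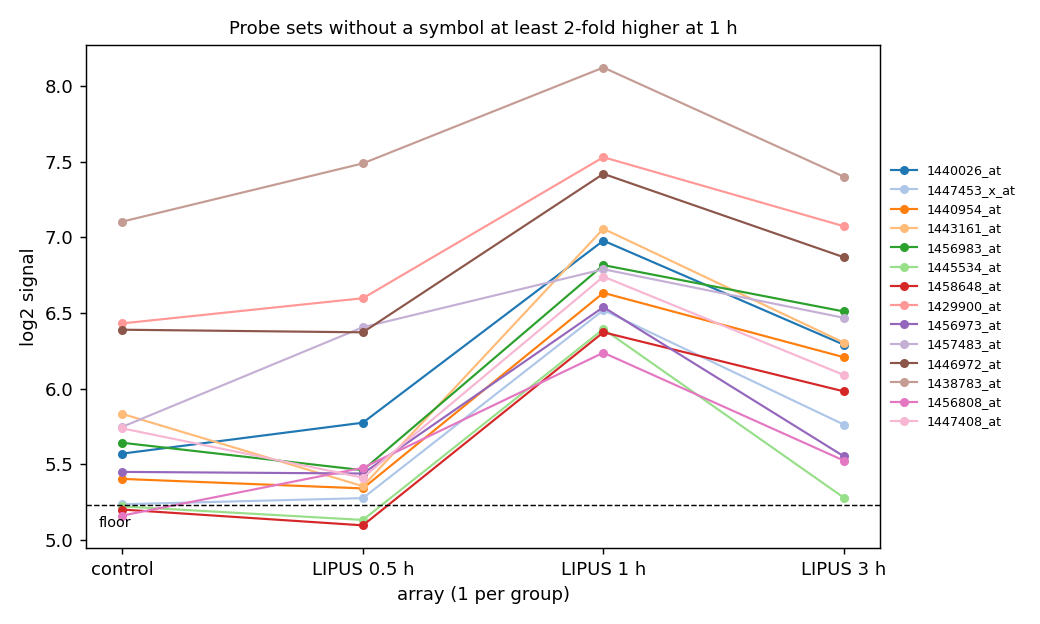
Log2 signal (y axis) of the 14 unnamed probe sets that rose 2-fold or more at 1 h, on each of the 4 arrays (x axis), 1 line per probe set, with the floor dashed. All lines peak at 1 h, and at 3 h they run from 0.05 to 0.87 above the control.

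The rises counted lay at low to middle signal, and the lower edge of that band depends on the floor. The unnamed probe sets were divided into 5 bins of equal number by mean signal. In the dimmest bin 1 of 336 was at least 1.5-fold higher at 1 h. Values under the floor were raised to it there, which shrinks differences, so this count does not show that rises were absent. With the floor at the 25th percentile, 182 of 5445 (3.34%) were past 1.5-fold, against 0.954% at equal signal. In the middle 3 bins, between mean signals of 5.31 and 7.87, the shares were 4.97%, 7.01% and 6.32%, against 1.30%, 1.18% and 1.44% for probe sets with 1 symbol in the same bins. In the brightest bin, from 7.87 up, 4 of 443 (0.903%) were higher against 0.800%. All 14 past 2-fold lay in the middle 3 bins, with 2, 8 and 4 in order of signal. The median difference in the brightest bin was 0.014, below the 0.045 of probe sets with 1 symbol, whereas in each dimmer bin it was above theirs.

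**Figure D3:**
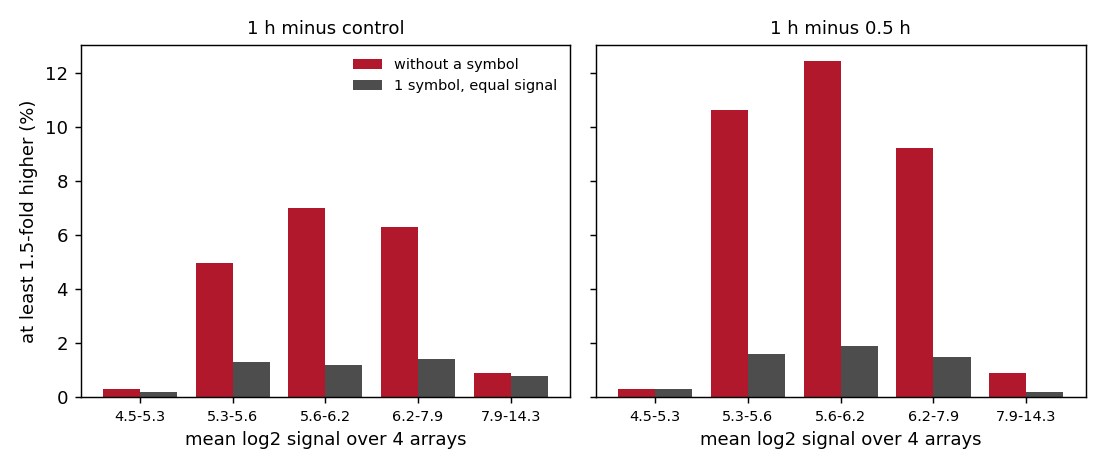
Percentage of probe sets at least 1.5-fold higher (y axis) in 5 bins of the unnamed probe sets by mean log2 signal (x axis), for unnamed probe sets (red) and probe sets with 1 symbol of equal signal (grey). The red bars stand above the grey ones in the 3 middle bins, for example 7.01% against 1.18% at 1 h minus control. In that comparison the pairs are close in the dimmest and brightest bins. From 0.5 h to 1 h the brightest bin holds 0.903% against 0.184%.

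Identifiers gave a further description. Of the 86 unnamed probe sets past 1.5-fold at 1 h, 81 were plain _at, 1 was _a_at, 2 were _s_at and 2 were _x_at. Within plain _at the share was 4.49%, against 1.19% of plain _at probe sets with 1 symbol of equal signal. The number in the identifier gave another division. Of 424 unnamed probe sets numbered from 1415793 to 1429996, 1.42% were past 1.5-fold, close to the 1.10% of named ones of equal signal in the same range. Between 1430033 and 1439948 the shares were 4.40% and 1.06%, and between 1440010 and 1449910 they were 5.42% and 1.04%. From 1455083 to 1460710 they were 5.90% and 1.59%. Of 157 unnamed probe sets from 1450003 to 1454956, 0 were past 1.5-fold, against 0.541% of named ones, a share too low to tell from 0 in that number. The low-numbered unnamed probe sets were also the brighter ones, with a median signal of 7.81 against 5.60 in the range that starts at 1440010.

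Named classes that resemble unannotated transcripts were set beside the unnamed probe sets, each weighted to the same signal. Probe sets of 600 provisional gene models, whose symbols are clone or predicted-gene names, did not show the same upper side at 1 h: 5 of 568 measured (0.868% at equal signal) were at least 1.5-fold higher. Probe sets of noncoding genes, 372 above the floor and mostly long noncoding RNAs by RefSeq gene type, came nearest to the unnamed ones, with 11 of 347 higher (3.93% at equal signal), although 2.14% were lower, against 0.237% of the unnamed. Probe sets with several symbols had a share of 0.617%. Within genes, the brightest probe set had a share of 0.715% and the others 1.29%. The 11 higher noncoding probe sets belonged to 8 genes, with 3 for Malat1 and 2 for Kcnq1ot1, and the 4 lower ones were 3 other probe sets of Malat1 and 1 of Tug1, so a single gene supplied much of both shares. The noncoding and provisional classes overlap, since many noncoding genes carry clone or predicted-gene names, so their shares are not independent of each other. They rest on 11 and 5 probe sets, and their differences from the unnamed group were not tested.

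**Figure D4:**
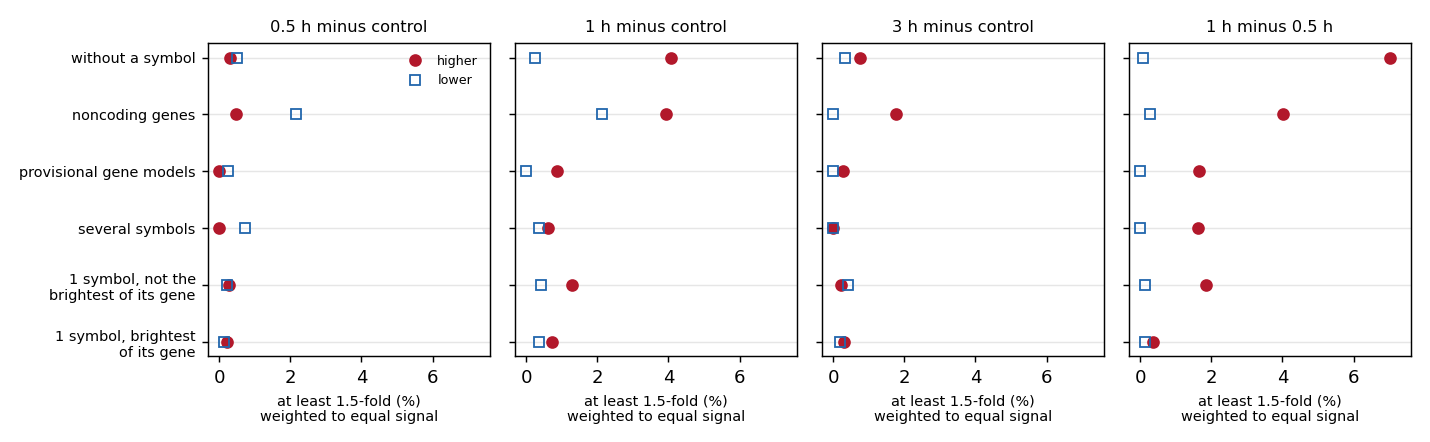
Percentage of probe sets at least 1.5-fold higher (red dots) or lower (open blue squares), weighted to the signal of the unnamed probe sets, for 6 classes (rows) in 4 comparisons (panels). At 1 h minus control the unnamed probe sets and those of noncoding genes stand at 4.08% and 3.93%, and the other 4 classes lie between 0.617% and 1.29%.

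Named long noncoding RNAs differed among themselves. Of 20 on the list, 17 had a probe set of their own and 12 were above the floor, and 1 of these 12, Neat1, rose at least 2-fold at 1 h, with 0 lower. Neat1, the scaffold RNA of nuclear paraspeckles, was at 6.14, 6.70, 7.48 and 6.72 by its brighter probe set and at 6.35, 6.32, 6.17 and 6.43 by the other, which did not follow. Kcnq1ot1, an antisense RNA that silences imprinted genes, was at 6.39, 6.10, 7.04 and 6.73, and Dleu2, a host transcript of microRNAs, was at 5.87, 5.74, 6.71 and 6.10. Both were dim, were slightly lower at 0.5 h, peaked at 1 h and were short of 2-fold, at 0.65 and 0.84. These are examples of higher values. 1 of the probe sets of Tug1, a nuclear and cytoplasmic RNA, was lower, at 8.26, 7.90, 7.27 and 7.81, while its brightest was at 9.92, 9.80, 10.13 and 10.16, and the brightest of Malat1 was at 12.65, 11.97, 11.92 and 12.28. The list median at 1 h was 0.09, against 0.022 over all probe sets. Small nucleolar RNA host genes, whose introns carry small guide RNAs, had a median of 0.10 with 0 of 13 past 2-fold. Histone genes, taken by symbol and so with the replication-independent linker histone H1f10 among them, had a median of −0.10 with 0 of 5 measured past 2-fold.

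The 2 arrays that the 1 h comparison did not use gave a further view of the same probe sets. Among the 86 unnamed probe sets past 1.5-fold at 1 h, the difference of 3 h minus 0.5 h had a median of 0.42, with quartiles of 0.23 and 0.63, and was above 0 in 75 (87.2%). Among the 215 probe sets with 1 symbol past the same rule, the median was 0.093 and 126 (58.6%) were above 0. Probe sets with 1 symbol were not weighted to equal signal here or in the correlations below. Over all unnamed probe sets measured at 1 h the median was 0.042, and over all those with 1 symbol −0.008. Across the 1647 unnamed probe sets above the floor on all arrays, the differences of 3 h minus 0.5 h and of 1 h minus control, which share no array, had a Pearson correlation of 0.457, against 0.221 across 19252 probe sets with 1 symbol. The other pairs of differences that share no array did not set the unnamed ones higher. The step from 0.5 h to 1 h correlated with the 3 h difference from the control at 0.454 for unnamed and 0.460 for named probe sets. The 1 h level relative to 3 h correlated with the 0.5 h difference from the control at −0.028 and 0.270. Probe sets are not independent replicates, and the correlations are descriptions. In level, the 86 had median signals of 5.73, 5.56, 6.55 and 6.09 on the control, 0.5 h, 1 h and 3 h arrays, and 83 of them were highest at 1 h. The named ones had 6.86, 7.29, 7.69 and 7.28, with a 0.5 h level above the control.

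**Figure D5:**
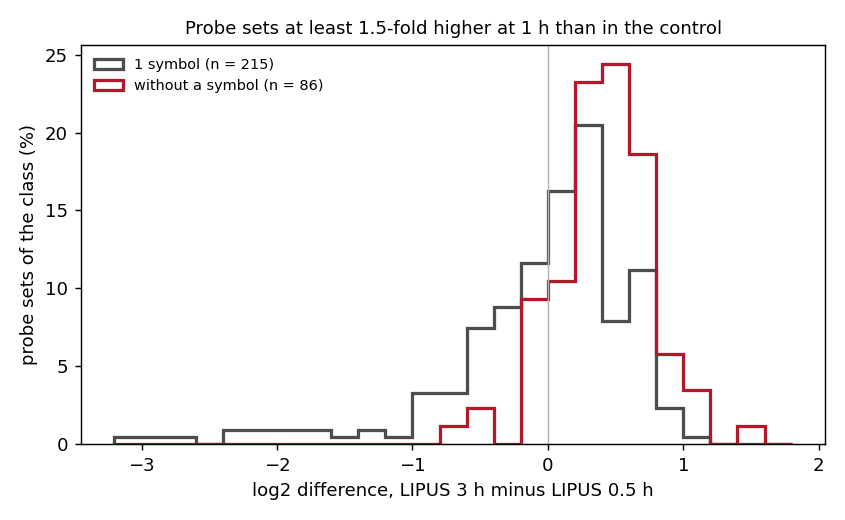
Distribution of the log2 difference of LIPUS 3 h minus LIPUS 0.5 h (x axis), as a percentage of each class (y axis), for probe sets at least 1.5-fold higher at 1 h than in the control: 86 unnamed (red) and 215 with 1 symbol (grey). The median is 0.42 for the unnamed probe sets and 0.093 for the named ones, whose lower tail reaches −3.12. The named ones are brighter and were not weighted to equal signal.

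The step from 0.5 h to 1 h, which leaves the control array out, held more of these probe sets than the comparison with the control. Of 2107 unnamed probe sets, 25 (1.19%) were at least 2-fold higher at 1 h than at 0.5 h and 0 were lower, against 0.0894% higher at equal signal and 0.182% over all probe sets (0.00867% lower). At 1.5-fold 148 (7.02%) were higher and 2 lower, against 1.14% higher at equal signal and 1.40% over all, with 0.139% lower over all. Of the 100 probe sets with the largest rises and both arrays above the floor, 49 were unnamed, although unnamed probe sets made up 7.87% of those ranked. At 1 h against the control they were 26 of the top 100 and 8.12% of those ranked. At 0.5 h against the control they were 25 of the lowest 100, 9 of the top 100 and 7.89% of those ranked. A low 0.5 h value thus enters the step as well as a high 1 h value. These ranks were not weighted to equal signal. With the floor at the 75th percentile 0 unnamed probe sets were past 2-fold in the step, at the 25th percentile 63 were, and without a floor on the values 49 were. Among probe sets above the floor on all 4 arrays, 101 unnamed ones (6.13%) were past 1.5-fold, against 1.04% at equal signal.

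The step was spread over signal and classes much as the rise against the control was. In the 5 bins of mean signal, from dim to bright, 1, 47, 55, 41 and 4 unnamed probe sets were at least 1.5-fold higher at 1 h than at 0.5 h. In the middle bin the share was 12.4%, against 1.91% of probe sets with 1 symbol. Probe sets of noncoding genes had a share of 4.03% at equal signal, those of provisional gene models 1.65%, and the brightest probe sets of named genes 0.359%. On the arrays that the step did not use, the 148 unnamed probe sets had a median 3 h minus control difference of 0.26, with 130 (87.8%) above 0. The 169 named ones past the same rule, not weighted to equal signal, had 0.21, with 139 (82.2%) above 0. Here the unnamed and named probe sets lay close together, unlike the 3 h minus 0.5 h differences of those chosen against the control.

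The 25 were chosen for a high 1 h and a low 0.5 h value, so their levels on those arrays are a description. Of the 23 with a 0.5 h minus control difference above the floor, 21 were below 0, and the median of the 23 was −0.31. 1443161_at had the largest step, 3.25-fold, with the values given above. 1438895_at was at 6.72, 6.14, 7.41 and 6.90, a 2.42-fold step. 1430191_at was at 7.11, 6.86, 8.09 and 7.91, a 2.34-fold step with little return by 3 h. 1440011_at was at 6.95, 6.64, 7.78 and 7.03, a 2.21-fold step that left it 0.07 above the control at 3 h. The differences of the 25 at 1 h against the control ran from 0.50 to 1.41, and 10 of them were past 2-fold there.

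At 0.5 h no unnamed probe set was past 2-fold in either direction, against 0.126% of all probe sets higher and 0.00435% lower. At 1.5-fold 6 of 2008 (0.299%) were higher and 10 (0.498%) lower, while the shares at equal signal were 0.246% and 0.176% and those over all probe sets 0.331% and 0.213%. The highest was 1458376_at, at 5.85, 6.54, 6.59 and 6.39, a plateau rather than a peak. 1425966_x_at, a bright one, was at 11.18, 11.83, 11.72 and 11.30. The lowest was 1441272_at, at 7.54, 6.78, 7.47 and 7.52, low on the 0.5 h array alone. 1439097_at, at 6.05, 5.34, 6.05 and 5.87, was low on the same array. The median difference of all unnamed probe sets was −0.021, against −0.003 at equal signal and 0.001 over all probe sets, with 1119 below 0 and 879 above. Above the floor on all 4 arrays, 6 of 1647 (0.364%) were higher and 9 (0.546%) lower by 1.5-fold, against 0.275% and 0.196% at equal signal.

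At 3 h no unnamed probe set was past 2-fold, against 0.0649% of all probe sets higher and 0.00433% lower. At 1.5-fold 16 of 2088 (0.766%) were higher and 7 (0.335%) lower, against 0.257% and 0.299% at equal signal and 0.372% and 0.346% over all probe sets. The highest were 1456983_at, 1430191_at and 1440954_at, with log2 differences of 0.87, 0.81 and 0.80, and all 3 were at least 1.5-fold higher at 1 h too. Above the floor on all 4 arrays 13 (0.789%) were higher by 1.5-fold, against 0.322% at equal signal. The median was 0.029, against −0.002 at equal signal and 0.003 over all, a gap of 0.031 that turned to −0.023 with the floor at the 75th percentile. From 1 h to 3 h, 1 of 2130 unnamed probe sets, 1445534_at, fell at least 2-fold and 0 rose, against 0.0650% lower and 0% higher over all probe sets. At 1.5-fold 23 (1.08%) were lower against 0.494% at equal signal and 0.541% over all, and 1 (0.0469%) was higher against 0.0173% over all. 1418949_at, at 6.18, 6.78, 7.05 and 6.16, was back at its control level at 3 h after values above it at 0.5 h and 1 h.

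Among unnamed probe sets that were lower at 1 h, the lowest were bright. None reached 2-fold. The lowest, an _a_at set, was at 9.51, 9.30, 8.64 and 8.72, a log2 difference of −0.87 at 1 h. The next had values of 10.26, 10.10, 9.42 and 9.60. The 4 lowest had mean signals from 9.04 to 10.02, above the median of 5.89 of the unnamed probe sets, and lay between −0.79 and −0.59 at 3 h, so they had not come back. The 4 after them were dimmer, with mean signals from 6.01 to 6.87 and differences at 1 h from −0.56 to −0.55.

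Control probe sets moved on the same arrays. The 3 for 18S ribosomal RNA, which has no poly-A tail, had median log2 differences from the control of 0.96, 1.91 and 1.79 at 0.5, 1 and 3 h. The 24 for bacterial poly-A transcripts added to the RNA had −0.05, 0.29 and 0.39, with 24 of 24 higher at 1 h and at 3 h. The 18 for hybridization controls, added after labelling, had −0.11, 0.08 and 0.02. The 2 probe sets for the B2 repeat, a short interspersed element found in many introns and noncoding transcripts, had 0.43, 0.20 and −0.04, and the 1 for the B1 repeat −0.33, −0.26 and −0.62. The part of any of these in the unnamed probe sets was not tested.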

How the data were processed

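The authors deposited 1 log2 value per probe set and array, already on a common scale. The range of values fits log base 2, and how probes were summarised and arrays scaled is not stated in the sources used here. Per the labels' protocols, cRNA was made from 500 ng of total RNA with an integrity number above 9.5. No column of another sample was present (0).

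Probe sets were unnamed when the platform annotation did not list them. The gene IDs of 34741 of 34945 single-symbol probe sets were found in the RefSeq table (GRCm38.p6), which gave their symbols and gene types. Values under the floor (median of all values) were raised to it, a comparison needed 1 of its arrays above it, and a difference whose dimmer array lay at or under it is a lower bound. Rose and fell mean at least 2-fold. Equal signal means that single-symbol probe sets were weighted to the unnamed ones' distribution over 20 bins of mean signal of the 4 arrays. For the shares by identifier suffix and number, 5 bins were used. No test was made, since each group is 1 array, and the number of arrays limits the precision.

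The unnamed probe sets and the gene lists were chosen with earlier results of these data known. Probe sets named by identifier are those past 2-fold at 1 h or in the step from 0.5 h, the 3 highest and lowest of the other comparisons, from which examples were taken, and those nearest the floor. The noncoding genes named are examples from a list. The calculation was tested on simulated data. Alternatives were the floor, scaling, reference, fold, matching and probe set choice. Tools were pandas 2.3.3 and numpy 2.4.6 under Python 3.11.15, and limma 3.58.1 (quantile, cyclic loess) under R 4.3.3.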

Additional observations from a re-analysis of the deposited data

Results flagged for a closer look

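The unnamed probe sets lay on opposite sides of named ones of equal signal at neighbouring times. The gap in median log2 difference was −0.017 at 0.5 h and 0.032 at 1 h, each from 1 array against the same control, and the difference between the times was not tested.

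Some control probe sets, which no comparison used, were above their control-array level, while others were below it, such as the B1 repeat at −0.33, −0.26 and −0.62 at 0.5, 1 and 3 h. For 18S ribosomal RNA the median log2 differences at 0.5, 1 and 3 h were 0.96, 1.91 and 1.79, and for the B2 repeat they were 0.43, 0.20 and −0.04. The 6946 probe sets without a symbol under the floor on all arrays had median differences of −0.003, −0.023 and 0.017 at those times, from values all under the floor.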

How the results depend on the processing

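No paired analysis was possible because each group holds 1 array, and for the same reason no replicate could be left out. Of 68 recomputed gaps in median, 51 kept their sign and moved by less than 0.5 times a set width. That width is the 95% binomial interval of the unnamed probe sets' own median. It treats probe sets as independent, which they are not, so it is a yardstick and no measure of stability. Of 123 recomputed counts 65 were 0 and stayed 0, which says nothing of stability, while 27 of the other 58 stayed within 1.5 times. The gap reversed with the floor at the 75th percentile, to −0.018 at 1 h, −0.023 at 3 h and −0.0059 from 0.5 h to 1 h, and from 1 h to 3 h without matching, to 0.014. Against the mean of the other 3 arrays it was −0.026 at 0.5 h and 0.019 at 1 h. Matched on the reference array it was 0.014 at 1 h, 0.019 at 3 h and 0.019 from 0.5 h to 1 h. Without matching it was 0.0051 at 1 h and 0.016 from 0.5 h to 1 h, and with 1 comparator per gene 0.058, 0.062 from 0.5 h to 1 h and −0.030 from 1 h to 3 h. It was 0.023 at 3 h with the floor at the 25th percentile, 0.038 at 3 h with plain _at probe sets, and 0.022 from 0.5 h to 1 h with both arrays above the floor. Unnamed probe sets higher at 1 h numbered 0 with the floor at the 75th percentile, 6 against the mean of the other arrays, 86 at 1.5-fold and 0 at 3-fold. Those higher in the step from 0.5 h numbered 63 of 5434 and 0 of 496 with the floor at the 25th and 75th percentile. Of 2107 they numbered 49 without a floor, 148 at 1.5-fold and 1 at 3-fold. Values under a floor were raised to it, so the 0 counts at the 75th percentile do not show that rises were absent. At 1.5-fold 6 were higher and 10 lower at 0.5 h, 5 lower at 1 h, 16 higher and 7 lower at 3 h, 2 lower from 0.5 h to 1 h, and 1 higher and 23 lower from 1 h to 3 h. Lower counts at 0.5 h were 2 with the floor at the 25th percentile, 1 without a floor and 1 with that other reference. From 1 h to 3 h they were 4 with the floor at the 25th percentile, 0 at the 75th, 3 without a floor, 2 after median centring, 2 after cyclic loess and 0 at 3-fold. The cause of these changes was not tested. In counts added after seeing the data, the 1.5-fold share at 1 h stayed 3.24 to 5.78 times that of named probe sets of equal signal, except with the floor at the 75th percentile, at 1.09 times. In the step from 0.5 h to 1 h it was 3.76 to 6.27 times, and 2.98 times with the floor at the 75th percentile.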

Other observations

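Probe sets of one long noncoding RNA disagreed. Malat1, an abundant nuclear RNA, is measured by 7 probe sets. The 3 bright ones, with control signals of 12.65, 12.1 and 10.38, had log2 differences of −0.68, −0.68 and −0.76 at 0.5 h, −0.73, −0.75 and −0.86 at 1 h, and −0.38, −0.32 and −0.45 at 3 h. The other 4, with control signals from 5.53 to 8.69, had differences of 0.53 to 0.86 at 1 h. All 7 fell short of 2-fold. The position of each probe set on the transcript was not used here.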
